A study of Homo sapiens with 9 samples.

Results

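TIG1 (tazarotene-induced gene 1, gene symbol RARRES1) encodes a membrane protein that was first found as a retinoid-induced gene and is silenced in many tumours. The comparison described here set the stable cells of both its isoforms, TIG1A and TIG1B, as a single group against control stable cells, and asked which genes had changed in the same direction in both. Its members are 6 TIG1 arrays (3 of TIG1A and 3 of TIG1B cells, with both lines of equal weight) and the 3 control arrays, which are the 9 arrays of the whole series. HCT116, the parent of all 3 groups, is an epithelial colon cancer cell line. Every group carried the pSwitch plasmid of the GeneSwitch system, in which a hybrid regulator turns on the target gene when mifepristone (MFP) is added. Control cells held the empty pGene/V5 plasmid and made no inducible protein, TIG1A cells held the inducible TIG1A plasmid, and TIG1B cells the inducible TIG1B plasmid. All 9 cultures, control cells included, received 5 nM MFP for 24 h, so a response to MFP itself is common to the groups. Each group was a single stable clone, and the 3 arrays of a group measured separately collected samples of it.

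GeneSwitch clones differ in where the plasmids entered the genome and in any change that the founding cell already had. A property of the control clone therefore appears as a change shared by both TIG1 lines, and it cannot be told apart from a response to TIG1. Expression was read from Affymetrix HG-U133 Plus 2.0 arrays of total RNA, in which a probe set is a group of short probes for a transcript and many genes have several. The deposited value is 1 signal intensity per probe set on a linear scale. It was transformed to log2, and differences are TIG1 minus control on that scale, so that 1 is a doubling. Probe sets that reached the median of their array on at least 2 arrays of a group were kept, which left 29977 probe sets of 13407 genes. A probe set was called a common change when limma gave an adjusted p under 0.05 for the mean of both lines against control and when both lines had moved in the same direction.

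The median intensity of an array ranged from 59.9 to 73.9, and it was lower on TIG1 than on control arrays by a factor of 0.898 (exact permutation test of 6 against 3 arrays, two-sided, p = 0.0357, where 0.0238 is the smallest possible). The 3' to 5' ratio of actin probe sets, a sign of RNA integrity, was also lower (0.944-fold, exact p = 0.0357), whereas that of GAPDH was not (0.999-fold, exact p = 1). The first TIG1A and the first TIG1B array stood apart from the other 4 TIG1 arrays in the GAPDH ratio, at 1.005 and 1.006 against 0.899 to 0.905, and results without this pair are given below. Epithelial markers were bright in all groups. EPCAM, CDH1, KRT8, KRT18 and KRT19 lay above the median of all 9 arrays, and CDX1 and VIL1, markers of differentiated colon cells, on 1 and 3 arrays. Of 8 fibroblast markers, 4 lay below the median of every array, but COL1A1, a collagen chain, was a common rise (log2 difference 1.11, standard error 0.20, adjusted p = 0.025 from limma). It lay between 426 and 774 in control, 1312 and 1644 in TIG1A and 890.2 and 908 in TIG1B cells. The summed fibroblast markers lay between 626 and 1054, 1464 and 1943, and 1110.2 and 1175 in these groups. COL1A1 was by far the largest part of this sum and the only 1 of the 8 that was called. Summed blood cell markers lay between 409 and 653, 255 and 335, and 345 and 576. Those of endothelial cells lay between 275 and 325, 165 and 203, and 183 and 277, and no marker of either was called. The part of other cells in the results was not tested.

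In both lines pooled, 734 probe sets of 572 genes rose and 953 probe sets of 738 genes fell. These are 2.45% and 3.18%, and together 5.63%, of the probe sets kept. A call in either direction without the rule on direction was made for 1693 (5.65%), and just 6 of these had opposite signs in the lines. The median log2 difference of the common rises was 0.95, with 1.11 in TIG1A and 0.83 in TIG1B cells. That of the common falls was -0.88, with -0.91 and -0.84. In 238 of the rises (0.794%) and 206 of the falls (0.687%) each line had changed by at least 2-fold. On 673 of the 734 rising probe sets all 6 TIG1 arrays lay above all 3 control arrays, which held for 6.15% of all kept probe sets, and on 907 of the 953 falling ones they lay below, which held for 8.5%. The adjusted p on either side of the threshold was 0.0499966 and 0.0500388. Both lines are measured against the same 3 control arrays, and the requirement of a common direction is part of the call.

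The size of these lists depended on single arrays. Without control array 1, 2 or 3 the rises numbered 1336, 154 and 377 and the falls 1208, 107 and 304. Without TIG1A array 1, 2 or 3 there were 442, 221 and 240 rises and 701, 273 and 305 falls, and without TIG1B array 1, 2 or 3 there were 403, 229 and 240 rises and 534, 274 and 339 falls. Leaving out the first arrays of both lines together left 247 rises, of which 203 are among the 734, and 376 falls, of which 278 are among the 953. None of the called probe sets was called in the other direction under any of these settings. The rises made up 43.5% of the common changes as deposited, 51.1% after quantile normalisation, 58.2% when arrays were centred on the median of the kept probe sets and 76.9% when they were centred on the median of all probe sets. The last of these moved the median difference of the kept probe sets from -0.04 to 0.11, so that the balance of rises and falls rests on the scaling.

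RARRES1 itself, on chromosome 3, had the largest rise, and its values are a check of the labels. Its intensity was 4.65, 2.90 and 5.17 on the control arrays, 66754, 58452 and 63438 on the TIG1A arrays and 44513, 37082 and 36413 on the TIG1B arrays. Control cells lay far below the array medians, so the rise against those medians was at least 692-fold (adjusted p = 9.79e-08 from limma). On its other kept probe set the control arrays read 57.9, 48.8 and 4.80 and the TIG1 arrays between 18603 and 56404. All 9 arrays thus matched their labels as control or TIG1 cells, whereas which isoform a TIG1 array held was not checked.

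Among genes that reached the array median on at least 1 array of every group, RGS2 rose on its single kept probe set and was the brightest of the leading rises. RGS2 is a GTPase-activating protein that ends signalling by G protein-coupled receptors. Its intensity was 1682, 1655 and 4606 on the control arrays, 14072, 15337 and 14075 on the TIG1A arrays and 16772, 17892 and 15583 on the TIG1B arrays. The third control array was high, yet every TIG1 array lay at least 3 times above it. The log2 difference was 2.63 in the TIG1A line, 2.84 in the TIG1B line and 2.73 for both (standard error 0.32, adjusted p = 0.00906 from limma). GRK5, a kinase that switches off activated G protein-coupled receptors, rose on 2 of its 4 kept probe sets. On the brighter it read 1269, 627 and 1363 in control, 5837, 6695 and 8240 in TIG1A and 1990, 2882 and 2908 in TIG1B cells, a log2 difference of 2.03 (standard error 0.28, adjusted p = 0.0135). The TIG1B line did not pass on its own on the brighter or the dimmer called probe set of GRK5 (adjusted p = 0.0892 and 0.0663 from limma). Its 2 other kept probe sets had differences of 0.13 and 0.06 and were not called. On the dimmer called probe set the call was lost under 4 alternatives. RGS2 and GRK5 were the 2 called members (10.5%, beside 2.66% of all genes with a rise) of 19 measured GPCR kinases, arrestins and RGS proteins. The median of this list was 0.18, beside -0.02 over all genes, and -0.0032 without control array 3.

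The other 11 leading rises were found on a probe set that was not the brightest of its gene. FBXO11, a substrate adaptor of a ubiquitin ligase, read 183, 187 and 302 in control, 2348, 1647 and 1738 in TIG1A and 1777, 1064 and 1315 in TIG1B cells (log2 difference 2.88, adjusted p = 0.0044 from limma). The lowest TIG1 value was 1064 and the highest control value 302. Its pair of other kept probe sets had differences of 0.08 and 0.34 and did not pass. HSP90B1, a chaperone of the endoplasmic reticulum, rose by 2.55 on one probe set (adjusted p = 0.0044) and had 0.24 on the other (adjusted p = 0.285). PGK1, an enzyme of glycolysis, rose at least 4.73-fold on its dimmest probe set, with 1 of 3 control arrays below its median (adjusted p = 0.00671), and lay between -0.45 and 0.06 on the other 4. TXN, the redox protein thioredoxin, rose by 2.12 (adjusted p = 0.0104), against 0.14 on its brighter probe set.
TWF1, which binds actin monomers, rose by 2.43 and NCKAP1 of the WAVE complex by 2.10. The far brighter probe set of NCKAP1 was not called, with -1.42 in TIG1A and 0.25 in TIG1B cells. In 5 further genes, 2 of the 3 control arrays lay below their median, so folds against a control floored at the medians are given as bounds. RPAIN, a nuclear import partner of replication protein A, rose at least 4.85-fold, COX5B of cytochrome c oxidase at least 3.31-fold and FAM76B at least 6.21-fold. UTP18 of the small-subunit processome rose at least 4.71-fold and MZT1 of the gamma-tubulin complex at least 3.22-fold. These 5 genes passed the intensity filter through their TIG1 arrays alone. When the filter was left out, RPAIN, COX5B, UTP18 and MZT1 were not called, and neither was TXN. Over the 11 genes with several kept probe sets, the 24 others had a median difference of 0.08, from -0.58 to 1.45, and none was called. These signals thus belong to single probe sets, and the transcript that each of them reads was not tested. UTP18 and MZT1 were no longer called without control array 2, and RPAIN without the first arrays of both lines. COX5B was no longer called without control array 1 or 2, without any single TIG1 array but the first TIG1B array, or without the first arrays of both lines.
Genes whose control arrays all lay below the array medians allow only a lower bound. These are 118 of the 734 rises, which likewise passed the intensity filter through their TIG1 arrays alone. LARP1B of the LARP family of RNA-binding proteins rose at least 4.16-fold, MLF1, known from a leukaemia fusion gene, at least 4.03-fold and the histone gene H4C11 at least 3.20-fold (adjusted p = 0.0127, 0.00862 and 0.0044 from limma). DHRS7, a short-chain dehydrogenase, rose at least 3.13-fold (adjusted p = 0.0287), a call that was lost without any single array but the first control array. The cyclic AMP phosphodiesterase PDE7A was higher by at least 3.07-fold (adjusted p = 0.0127). LARP1B, DHRS7 and PDE7A were not called when the filter was left out, and LARP1B was also lost without control array 2. Apart from H4C11, which has a single kept probe set, each of them had other probe sets that were not called. Signal of H4C11 may come from other histone genes of near-identical sequence.

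**Figure D1:**
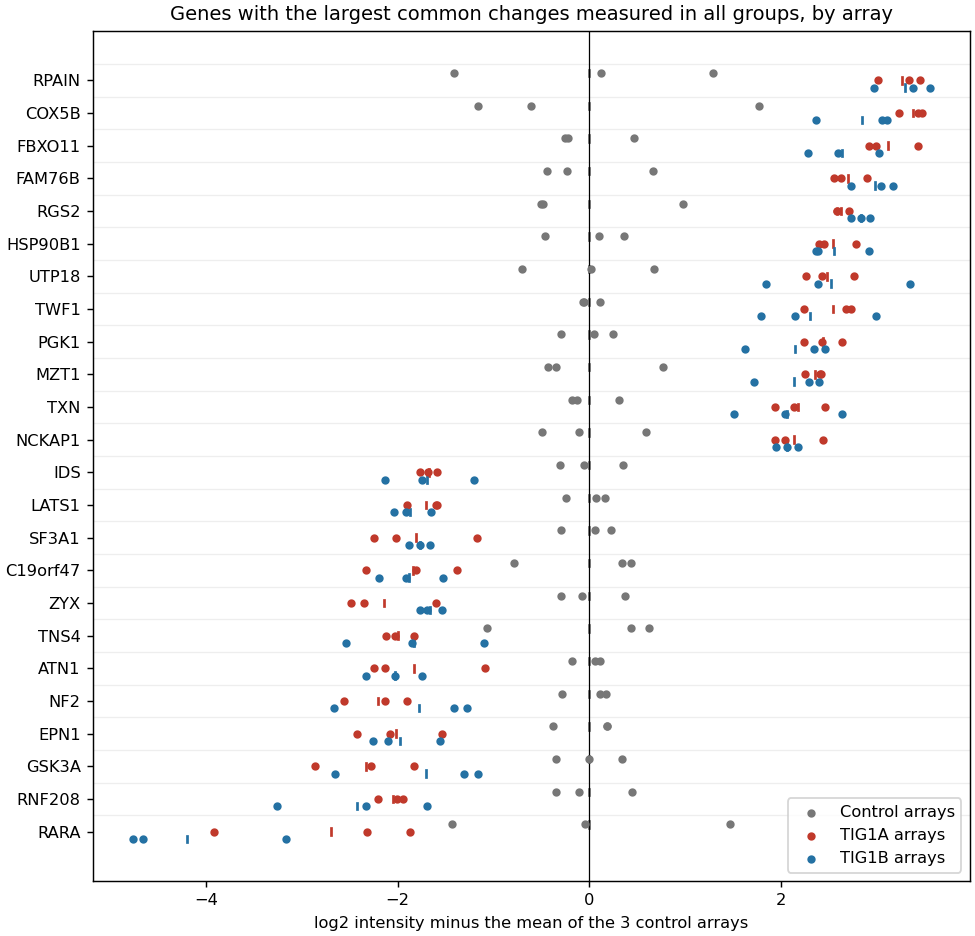
Log2 intensity of the 24 leading common changes on each of the 9 arrays, minus the mean of the 3 control arrays (horizontal axis), with 1 row per gene and 1 point per array; short bars are group means. Red and blue points of TIG1A and TIG1B cells lie on the same side of the grey control points in every row, and the control points of RARA and COX5B are the most spread.

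The leading falls were more often found on several probe sets of a gene. Among 12 genes, 10 had other kept probe sets, and in 7 of these at least 1 more was called. The 27 others had a median difference of -0.69. ZYX, which encodes the focal adhesion protein zyxin, read 1842, 2147 and 2922 in control, 747, 442 and 404 in TIG1A and 697, 664 and 781 in TIG1B cells. Its log2 difference was -1.91 (standard error 0.23, adjusted p = 0.0104 from limma), and its other probe set fell by 1.51 (adjusted p = 0.00862). NF2, the tumour suppressor merlin of the cell cortex, fell on 4 of 8 kept probe sets by 0.73 to 1.99. The remaining 4 had TIG1A values of -0.85 to -1.16 and TIG1B values of -0.06 to -0.41. SF3A1, a splicing factor of the U2 particle, fell on 3 of 4 probe sets by 0.64 to 1.79.
GSK3A, a kinase of glycogen and Wnt signalling, fell by 2.02 and 0.73 on both of its probe sets (adjusted p = 0.0284 and 0.0372). LATS1, a kinase of the Hippo pathway, read 237, 191 and 252 in control and between 54.9 and 74.6 in TIG1 cells, a difference of -1.78 (adjusted p = 0.0044). Its pair of other probe sets had -0.10 and -0.21 and did not pass. RNF208, a RING finger gene (-2.24), EPN1, an endocytic adaptor (-1.99), and C19orf47 (-1.86) were called on 1 probe set. TNS4 of focal adhesions (-1.91), the corepressor ATN1 (-1.93) and IDS, a lysosomal sulfatase (-1.68), were called on 2 probe sets each. Other kept probe sets of IDS were not called and had differences from -0.95 to 0.33. RARA, a retinoic acid receptor, showed the largest fall of this group (-3.45, standard error 0.73, adjusted p = 0.038). Its control arrays read 4042, 1417 and 540, and its TIG1 arrays between 53.8 and 399. Its 4 other kept probe sets were not called, and the call was lost without control array 1 or 2 and without any single TIG1 array.
When the intensity filter was left out, LATS1 was the only 1 of these 12 falls that stayed called. Without control array 2, LATS1, IDS and ZYX stayed called among these 12 falls, and the other 9 did not. TNS4 was also lost without control array 1 and without any single TIG1 array, and C19orf47, NF2 and GSK3A without control array 3. Of the 6 TIG1 arrays, 3 lay below their median for LATS1, 2 for RARA, RNF208, C19orf47 and GSK3A, and 1 for TNS4. With these set to the medians the falls remained at least 3.22-fold for LATS1 and 10.3-fold for RARA.
In 5 more falls, 4 or 5 of the 6 TIG1 arrays lay below their median, and folds are bounds with those arrays set to the medians. NUMBL, a relative of the Notch regulator NUMB, was at least 2.79-fold lower and TMEM106C at least 2.83-fold (adjusted p = 0.0376 and 0.0485 from limma). With 5 TIG1 arrays below their median, NUMBL passed the intensity filter through its control arrays alone. CCDC157, AGER, a cell surface receptor of the immunoglobulin family, and the non-coding ASMTL-AS1 were at least 2.65-fold, 2.52-fold and 2.17-fold lower. None of these 5 was called without control array 2, without control array 3 or when the intensity filter was left out. In 85 of the 953 falls, all 3 arrays of at least 1 TIG1 line lay below their medians.

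Some genes were called on several probe sets, which may share part of their probes' target. A rise on at least 2 probe sets and a fall on none was found for 49 genes, and the reverse for 99 genes, while 2 genes had both. CDC42SE2, an effector of the GTPase CDC42, rose on all 4 of its kept probe sets. On the brightest it read 2843, 2679 and 2639 in control, 6408, 5822 and 5848 in TIG1A and 4762, 4215 and 4159 in TIG1B cells. The TIG1B arrays lay between the other groups without overlap. The log2 differences of the 4 probe sets were 0.87 to 1.66 (adjusted p = 0.00906 to 0.0279 from limma).
RAB31, a Rab GTPase of the trans-Golgi network, rose on 3 of 3 probe sets by 1.16 to 1.5, OSBPL6 of the oxysterol-binding family by 1.16 to 1.32, and UTRN, the dystrophin relative utrophin, by 1.02 to 1.13. EXOSC4, a subunit of the RNA exosome, rose by 0.64 to 1.03 and IL17RB, a receptor subunit for interleukin 17 family cytokines, by 1.06 to 1.38. BPTF, the large subunit of the remodelling complex NURF, rose on 4 of 5 probe sets, and SCAMP1, a protein of secretory carriers, on 3 of 6. The differences of BPTF were 1.21 to 2.33 in TIG1A cells and 0.27 to 1.36 in TIG1B cells on the called probe sets, and on 3 of the 4 the TIG1B arrays overlapped the control arrays.
ARHGDIA fell on all 4 of its probe sets by 1.15 to 1.68. One of its bright probe sets read 4416, 4929 and 5449 in control, 1573, 1717 and 1573 in TIG1A and 1723, 1999 and 2103 in TIG1B cells, and the groups of TIG1 and control arrays did not overlap on any of the 4. PVR, the poliovirus receptor of cell contacts, fell on 4 of 6 probe sets by 0.73 to 1.25, DAGLB, a diacylglycerol lipase, on 4 of 4 by 0.97 to 1.17, and PRRC2A on 3 of 3 by 0.79 to 1.32. LMNA, which encodes lamins of the nuclear envelope, fell on 3 of 6 by 0.81 to 1.05 and RBM10, a regulator of splicing, on 3 of 3 by 0.64 to 1.01. DAGLB was lower in TIG1B than in TIG1A cells on all 4 probe sets, a difference that did not pass (adjusted p = 0.122 to 0.409). Without control array 2, CDC42SE2, BPTF, IL17RB and PRRC2A stayed called among these 16 genes, as judged on their leading probe sets. When the intensity filter was left out, BPTF stayed called among the 8 genes with rises. Of the 8 genes with falls, which include NF2 and SF3A1, 0 did.

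**Figure D2:**
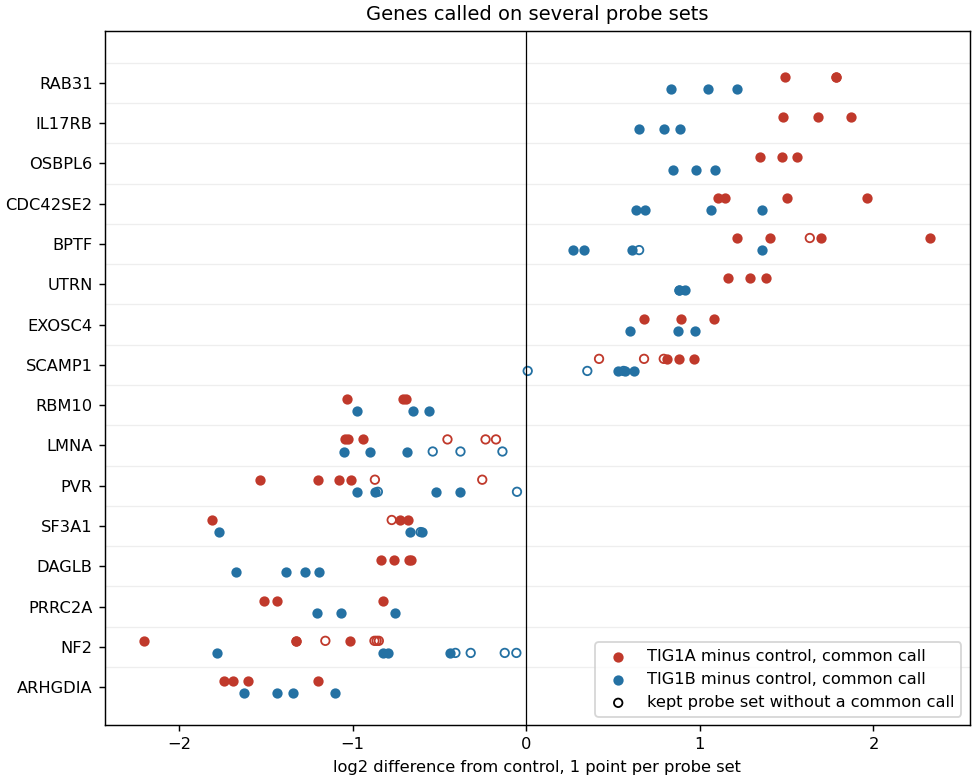
Log2 difference from control cells (horizontal axis) of every kept probe set of 16 genes that were called on several probe sets, with TIG1A in red and TIG1B in blue; filled points are common calls and open points other kept probe sets. All 4 probe sets of CDC42SE2 lie above 0 and all 4 of ARHGDIA below 0 in both lines.

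Over the whole of both lists, other probe sets of the same genes moved less. For genes with a rise, RARRES1 left out, 878 other kept probe sets had a median difference of 0.19, and 68.3% of them lay above 0. For genes with a fall, 908 others had a median of -0.30, and 74.7% lay below 0. The brightest probe set was itself called in 62.3% of the 571 genes with a rise and in 65% of the 738 with a fall. When each gene is read from its brightest probe set alone, 357 of 13407 genes rose (2.66%) and 480 fell (3.58%), and the gene lists below use these probe sets.

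The start region of 4 genes is shown, from 250 bases before to 50 after the RefSeq start on GRCh38.p14, 5′ to 3′ on the strand of the gene. RGS2 (chr1:192808789-192809088, plus strand) is the brightest leading rise and CDC42SE2 (chr5:131263803-131264102, plus) rose on every probe set. HNRNPL (chr19:38852298-38852597, minus) and ARHGDIA (chr17:81871288-81871587, minus) fell on every probe set. Capitals mark matches, on either strand, to the 11 motifs searched, here the SP1 box GGGCGG, the CCAAT box and the ETS site CCGGAAGT.
RGS2: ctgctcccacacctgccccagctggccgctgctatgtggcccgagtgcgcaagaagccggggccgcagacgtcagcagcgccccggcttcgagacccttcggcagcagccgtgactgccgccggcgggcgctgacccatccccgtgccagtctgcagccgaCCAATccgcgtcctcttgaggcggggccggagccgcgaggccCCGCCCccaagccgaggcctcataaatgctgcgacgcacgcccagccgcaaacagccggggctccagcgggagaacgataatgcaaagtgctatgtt
CDC42SE2: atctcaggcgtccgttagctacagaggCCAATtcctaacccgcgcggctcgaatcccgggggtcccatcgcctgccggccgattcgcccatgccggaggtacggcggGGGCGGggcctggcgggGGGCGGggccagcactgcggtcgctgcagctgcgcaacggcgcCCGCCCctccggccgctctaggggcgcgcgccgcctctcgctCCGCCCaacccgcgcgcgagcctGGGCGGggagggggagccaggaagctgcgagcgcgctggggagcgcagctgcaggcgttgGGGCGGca
HNRNPL: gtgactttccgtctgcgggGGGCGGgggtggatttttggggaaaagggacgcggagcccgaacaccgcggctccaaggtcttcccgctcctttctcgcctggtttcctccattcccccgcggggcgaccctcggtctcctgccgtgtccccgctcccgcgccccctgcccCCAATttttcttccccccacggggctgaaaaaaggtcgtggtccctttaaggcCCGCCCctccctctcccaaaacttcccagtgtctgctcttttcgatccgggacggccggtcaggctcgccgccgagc
ARHGDIA: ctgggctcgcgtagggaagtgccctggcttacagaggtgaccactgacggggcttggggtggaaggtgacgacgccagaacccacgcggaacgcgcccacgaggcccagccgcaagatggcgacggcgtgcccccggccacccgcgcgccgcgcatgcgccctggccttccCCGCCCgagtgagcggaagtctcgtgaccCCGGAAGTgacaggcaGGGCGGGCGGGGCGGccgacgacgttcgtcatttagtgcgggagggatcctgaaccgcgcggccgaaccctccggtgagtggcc
The SP1 box was found in all 4, with 1 match in RGS2, 6 in CDC42SE2, 2 in HNRNPL and 4 in ARHGDIA, of which 3 in ARHGDIA overlap. RefSeq promoters were available for 610 of the 738 genes that fell (82.7%), and 78.5% of them held an SP1 box, beside 68.3% of the 10813 measured genes with a promoter and 44.6% of all 27305 promoters. For the CCAAT box, CCAAT, the shares were 35.2%, 36.5% and 35.7%, and for the ETS site 8.36%, 8.19% and 4.44%. The TATA box TATAAA was found in 4.26%, 6.17% and 11.95%, and the E-box CACGTG in 11.1%, 10.1% and 7.43%. The cAMP response element TGACGTCA stood in 3.44%, 3.08% and 1.98% and the AP-1 site TGANTCA in 4.10%, 4.72% and 7.76%. The remaining motifs, namely the ATF4 element TGATGNAA, the ER stress element, which holds a CCAAT box, the sterol response element TCACNCCAC and the glucocorticoid response element, were each in at most 2.00% of the promoters of measured genes. Of the 571 genes with a rise, 448 had a promoter (78.5%). This is below the coverage set for such a description, which is therefore void for the rises, so that no share above is shown to be particular to the falls.

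Gene lists were described by the members called and by their median, beside 2.66% of all genes with a rise, 3.58% with a fall and a median of -0.02. Of all 13407 genes, 6399 lay above 0, and 6118 to 8256 did so under 13 alternatives, most after centring on all probe sets. The brightest probe set of each gene was used. In the unfolded protein response, by which the endoplasmic reticulum raises its folding capacity, 4 of 21 measured genes rose and none fell, and 17 had a value above 0 (median 0.16). PDIA4, a disulfide isomerase, rose by 0.61, MANF, a secreted stress protein, by 0.56, KDELR3, a receptor that retrieves chaperones, by 0.69 and CRELD2 by 0.96 (adjusted p = 0.0467, 0.0314, 0.0423 and 0.0253 from limma). CRELD2 read 8242, 9239 and 13912 in control, 29742, 26648 and 27839 in TIG1A and 14330, 13554 and 14096 in TIG1B cells, so TIG1B overlapped control. HSP90B1 rose on the dimmer probe set given above, and CALR, the chaperone calreticulin, fell on 2 of its 3 probe sets, though not on its brightest. The rises numbered 5 without control array 1, 1 without control array 3 or TIG1A array 1, and 0 without control array 2, any other single TIG1 array or the first arrays of both lines.
Transport between endoplasmic reticulum and Golgi had 4 rises and 4 falls among 47 genes, and 37 of them lay above 0 (median 0.22, and 0.18 to 0.38 under 13 alternatives). There were 0 rises and 1 fall without control array 2 or 3 and without array 2 or 3 of either line, 2 rises without the first array of either, and 0 rises and 2 falls without both first arrays together. COPB2 of the coat of Golgi vesicles (0.57), the cargo receptor TMED9 (0.61), KDELR3 and YIF1A (0.62) rose. KDELR1 (-0.74), GBF1, an exchange factor for ARF GTPases (-1.1), PREB, the exchange factor of SAR1 (-0.62), and the Golgi tether GOLGA2 (-0.61) fell. GBF1 read 1423, 1334 and 1477 in control, 756, 697 and 608 in TIG1A and 591, 649 and 665 in TIG1B cells. The related receptors KDELR1 and KDELR3 thus moved in opposite directions, although TIG1B overlapped control for KDELR3. RAB2A, a GTPase of this step, rose on 1 of 6 kept probe sets, from 177, 153 and 184 in control to 812, 836 and 836 in TIG1A and 779, 595 and 558 in TIG1B cells (2.09, adjusted p = 0.00359). RAB1A and TFG also rose on probe sets other than their brightest. Cytosolic ribosomal proteins had 36 of 37 members above 0 with no call, and their median of 0.16 fell to 0.04 both after quantile normalisation and without the first arrays of both lines. On other probe sets RPL14, RPL31, RPS9 and RPS21 rose.

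Most cell cycle genes lay below 0. Of 32 mitosis genes 3 lay above 0, none rose and 5 fell (median -0.24, with -0.37 in TIG1A and -0.11 in TIG1B cells). CCNA2, the cyclin of S phase and mitotic entry, read 5767, 6428 and 5935 in control, 2749, 2817 and 2360 in TIG1A and 4373, 3968 and 3498 in TIG1B cells, and fell by 0.91 (standard error 0.12, adjusted p = 0.0133 from limma). The mitotic kinase PLK1 fell by 0.66, the phosphatase CDC25B by 0.92, the checkpoint kinase BUB1B by 0.49 and the kinetochore protein NDC80 by 0.51. No TIG1 array reached a control array on any of the 5. Of 39 genes of DNA replication, 6 lay above 0 and 3 fell, namely the helicase subunit MCM7 (-0.71), the polymerase subunit POLD1 (-0.83) and the ligase LIG1 (-0.68). The replication median was -0.25, with -0.45 in TIG1A and -0.06 in TIG1B cells, beside -0.03 and -0.01 over all genes in these lines. Its shift was thus mostly that of TIG1A cells. On other probe sets KIF2C and CDT1 fell, and AURKA, CDK1 and RFC5 were called as rises. Under 13 alternatives 4 to 11 replication and 1 to 10 mitosis genes lay above 0. The mitosis median lay between -0.29 and -0.09 under these alternatives. Its falls numbered 7 after quantile normalisation, 2 and 1 after centring on kept and on all probe sets, 2 without the first arrays of both lines, and 0 to 3 without any single array (0 without control array 2). The replication falls numbered 8 without control array 1, 2 without control array 3, 1 without TIG1B array 1, and 0 without any other single array, after either centring and without the first arrays of both lines.

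Immediate early genes and ERK feedback genes, which follow growth factor signalling, had 4 falls and no rise among 27 (median -0.24, 5 above 0). FOSL1, an AP-1 subunit, read 3936, 5623 and 4788 in control, 1168, 837 and 899 in TIG1A and 2736, 2588 and 3013 in TIG1B cells. ETV4, an ETS factor, fell by 1.21, DUSP5, a phosphatase of nuclear ERK, by 1.06 and IER2 by 0.56. Every TIG1 array lay below every control array for these 4. On other probe sets DUSP1 rose and CCN1, DUSP4 and ETV1 fell. Without control array 2 the list had 1 fall. In the ATF4 list 2 amino acid transporters fell. SLC7A5, which takes up large neutral amino acids, read 9300, 12689 and 10893 in control, 5107, 4256 and 4241 in TIG1A and 5103, 4258 and 4654 in TIG1B cells. Every TIG1 array lay below every control array, with a log2 difference of -1.24 (adjusted p = 0.00904 from limma, standard error 0.14). SLC1A5, a glutamine carrier, fell by 1.42 (adjusted p = 0.0158). The other 26 of 28 measured members were not called on their brightest probe set, and the list median was 0.00 in TIG1A and -0.36 in TIG1B cells. On other probe sets MTHFD2, SHMT2 and STC2 fell. SLC7A5 lost its call when the intensity filter was left out and under no other alternative, and SLC1A5 under 3, which include leaving out control array 2.

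Clathrin and its adaptors had 3 falls among 23 genes (median -0.24), AP2A1 (-1.20), AP1M1 (-0.95) and EPN1, all on chromosome 19. AP2A1, a subunit of the endocytic adaptor, read 708, 792 and 943 in control, 355, 341 and 348 in TIG1A and 330.2, 347 and 389 in TIG1B cells. The Mediator, which links transcription factors to RNA polymerase, had 3 falls among 29 genes at a median of 0.03. MED15 read 1814, 1634 and 1811 in control, 519, 563 and 691 in TIG1A and 682, 735 and 671 in TIG1B cells (-1.46, adjusted p = 0.0044), and MED22 (-1.07) and MED29 (-0.82) followed. On other probe sets AP1M2, DAB2 and GAK of the clathrin list and MED16 fell, and MED14 rose. Without control array 2 both lists had 1 fall, as had the Mediator without TIG1A array 2 or 3 or TIG1B array 2. HNRNPL, a splicing regulator, fell on both of its probe sets by 1.1 and 1.26 (adjusted p = 0.00862 and 0.0044). With RBM38 (-1.20, adjusted p = 0.00718) it was one of 2 falls among 37 hnRNP and SR factors, which numbered 7 without control array 1. Its dimmer probe set read 8195, 9003 and 9602 in control, 3254, 3236 and 3012 in TIG1A and 4123, 4318 and 4780 in TIG1B cells. In the hnRNP and SR list HNRNPD, HNRNPDL, HNRNPUL1 and PTBP2 fell and SNRPE rose on other probe sets. Of epithelial junction and keratin genes, 4 of 29 fell, among them KRT19 with a difference of -0.66 in either line. No alternative kept all 4, with 0 to 3 falls under 13 of them and 0 without control array 2 or the first arrays of both lines.

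Sterol and fatty acid synthesis had a median of 0.33, with 20 of 25 values above 0, and 2 calls, IDI1 (0.89) and TM7SF2 (0.86). There were 5 rises without control array 1 and 0 without any other single array, and the median was 0.09 without control array 3. SCD and SQLE rose on other probe sets. Targets of the glucocorticoid and progesterone receptors, to which MFP binds, had 3 rises among 22 genes. SGK1, a kinase of ion transport, read 1046, 902 and 1202 in control, 1791, 1803 and 1621 in TIG1A and 2088, 2426 and 2245 in TIG1B cells (0.92, adjusted p = 0.0144 from limma). FKBP5 (0.68) and CEBPD (0.73) rose as well, and TIG1B overlapped control for CEBPD. The list median was 0.13, and -0.06 without control array 3. The rises numbered 5 without control array 1, 0 without control array 2 and 1 without any other single array or the first arrays of both lines, and on other probe sets ANGPTL4 and DUSP1 rose and GLUL fell. All groups had received the same MFP dose. SOD2, the mitochondrial superoxide dismutase, read 525, 521 and 449 in control, 1442, 1304 and 1424 in TIG1A and 1222, 1081 and 1082 in TIG1B cells (1.33, adjusted p = 0.0044). The annotation used here assigned this probe set to SOD2, whereas the study listed it as a transcribed locus without a gene symbol. In the same list of 25 NRF2 targets, NQO1 (-0.53), GCLM (-0.69) and OSGIN1 (-1.13) fell and AKR1C3 rose (1.38). Of 35 hypoxia and glycolysis genes, BNIP3 (1.21), PFKFB3 (0.95) and EGLN1 (0.73) rose and PFKP fell (-0.87). On other probe sets AK4, ENO1, PGK1 and TPI1 rose, as did TXN of the NRF2 list. The NRF2 list had 1 rise without any single array but control array 1, and 0 to 3 falls. The hypoxia list had 5 rises without control array 1 and 2 or 3 without any other, and no fall without control array 2 or 3 or array 2 or 3 of either line.
In the other lists at most 2 members were called in either direction on the brightest probe sets: 26 p53 targets (TP53INP1 up, RBM38 down, and ZMAT3 up on another probe set), 17 Wnt targets and TCF/LEF factors (AXIN2 up, SOX9 down), 26 interferon-stimulated genes (IFI44 and UBE2L6 up, IRF7 down), 14 NF-kappaB targets (SOD2 up), 14 histone genes (H2BC5 and H2BC9 up), 18 aminoacyl-tRNA synthetases and cofactors (VARS1 down), 18 retinoic acid receptors and responsive genes (LRAT down, and on other probe sets HOXB7 up and RARA and RXRB down) and 13 subunits of the CCT chaperonin and prefoldin (none). Under 13 alternatives these lists had between 0 and 8 rises and between 0 and 2 falls. On other probe sets TROAP of the Wnt list fell and CCT4 of the chaperonin rose. The difference of CCT4 was 1.37 there (adjusted p = 0.00863 from limma) and 0.09 on its brightest probe set.

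**Figure D3:**
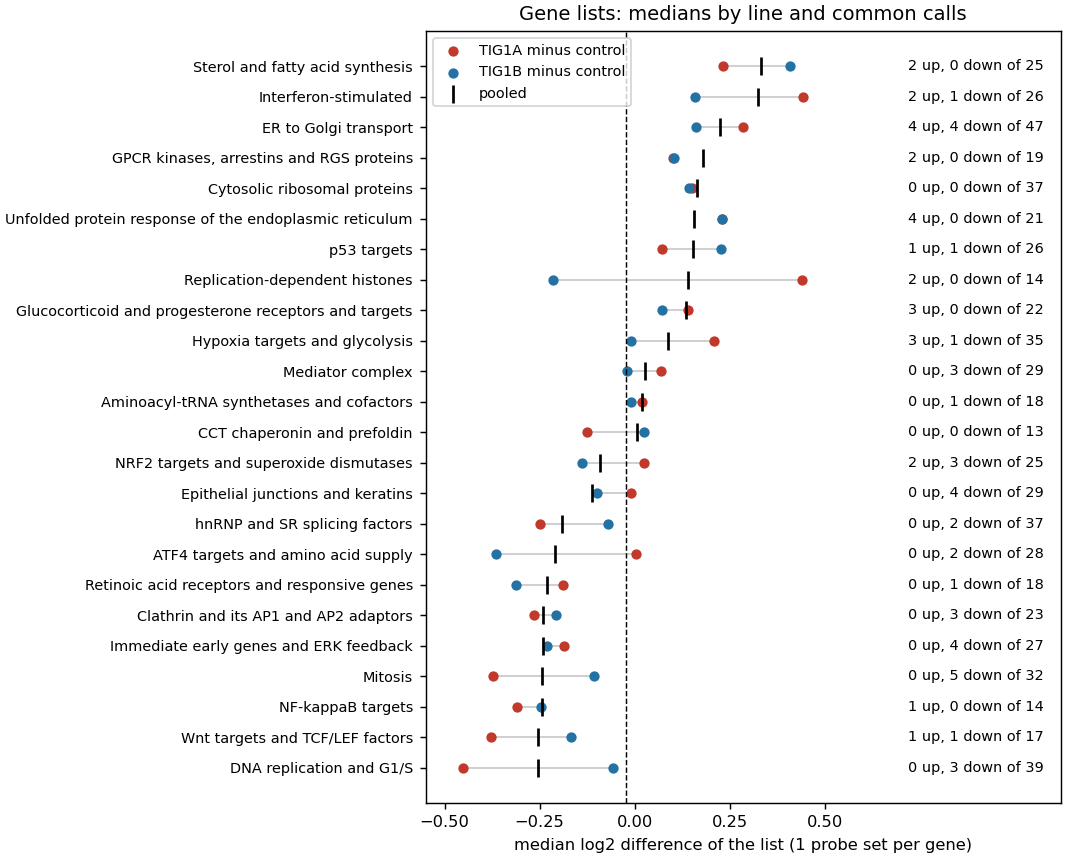
Median log2 difference from control cells (horizontal axis) of 24 gene lists, for TIG1A (red), TIG1B (blue) and both pooled (black bar), with the number of common rises and falls among the measured genes at the right; the dashed line is the median of all 13407 genes. Replication, Wnt, NF-kappaB and mitosis genes lie at the low end and sterol and interferon genes at the high end, in an order that changes with the scaling.

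The common falls were unevenly spread over the genome. On chromosome 19, 88 of 921 measured genes fell (9.55%) and 10 rose (1.09%), beside 3.58% and 2.66% of all genes. The median difference of the chromosome was -0.14 in TIG1A and -0.17 in TIG1B cells. Its share of falls was 2.31 to 3.79 times that of all genes under 13 alternatives, while the number itself moved between 11 (without control array 2) and 99 (without control array 1). It was 42 after centring on all probe sets, when the median of the chromosome was -0.02, and 39 without the first arrays of both lines. Without control array 3 it was 30, and without single TIG1 arrays 28 to 62. In 4 groups of genes from the lowest to the highest promoter GC, 4.05%, 7.69%, 13.04% and 15.9% of its genes fell, beside 1.96%, 2.33%, 3.32% and 4.86% on the other chromosomes (promoters for 85.7% of its genes). In 4 groups from the dimmest to the brightest genes, the shares were 0.370%, 13.9%, 15.3% and 10.1%, beside 1.27%, 3.8%, 4.93% and 2.54%. The order of chromosome 19 and the others was thus the same in each group but the dimmest.
In runs of 25 neighbouring genes the median pooled difference ranged from -0.58 to 0.32 over 523 runs. From MAP4K1 to EID2 on chromosome 19 (38587641 to 39540161 of GRCh38), 8 of 25 genes fell, namely ACTN4, HNRNPL, NFKBIB, FBXO27, PAK4, SAMD4B, MED29 and SUPT5H, with medians of -0.44 in TIG1A and -0.34 in TIG1B cells. From CYP2B7P to ERF (40924265 to 42255128) 6 of 25 fell, among them AXL, TGFB1 and GSK3A, and from KMT5C to ZNF582 (55339876 to 56393534) 5 of 25 did, among them EPN1. The lowest run of all, FAM20C to EIF3B on chromosome 7 (192571 to 2380745), had -0.21 in TIG1A and -0.93 in TIG1B cells, so its fall was mostly that of one line. Chromosome 8 held 26 rises among 485 genes (5.36%), but 1 (0.206%, beside 0.425% of all genes) without control array 2 and 3 (0.619%, beside 0.671%) without TIG1A array 2. Its highest run, GPAA1 to C8orf33, had a median of 0.66 in TIG1A and -0.11 in TIG1B cells.
Common changes also differed with gene length. Among the longest of 4 equal groups of genes, above 70.4 kb, 3.55% rose and 2.18% fell, and in the group of 11.1 to 28.5 kb, 2.03% rose and 5.17% fell.

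**Figure D4:**
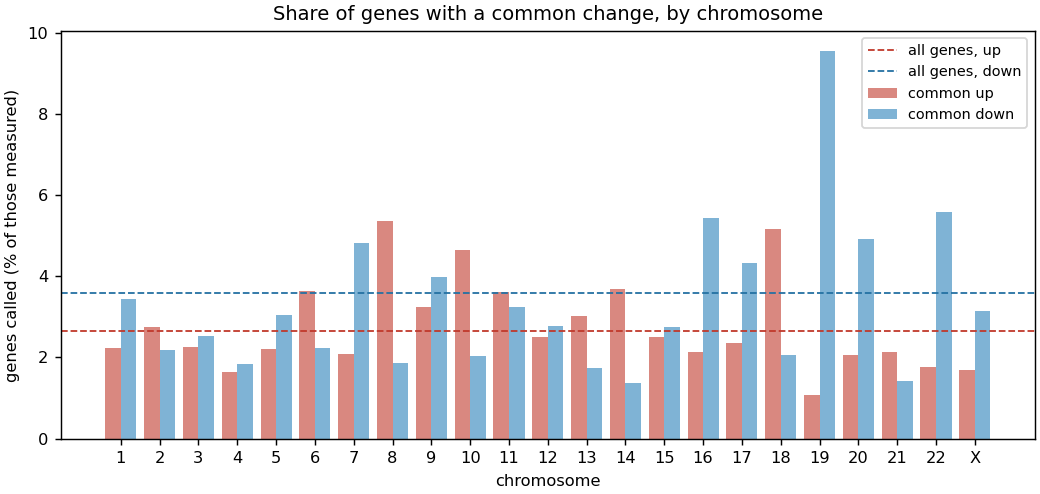
Share of the measured genes of each chromosome (horizontal axis) that rose (red bars) or fell (blue bars) in both lines, in percent of the genes measured; dashed lines are the shares over all genes. The bar of falls on chromosome 19 reaches 9.55%, against 3.58% over all genes.

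The 2 lines changed by unequal amounts. Among the common rises the difference was larger in TIG1A cells for 542 of 734 probe sets (73.8%), and among the falls for 595 of 953 (62.4%), beside 59% of all kept probe sets with the same sign in both lines. RARRES1 read higher on every TIG1A than on every TIG1B array, although its difference between the lines did not pass (adjusted p = 0.268 and 0.623 on its probe sets), and its part in these shares was not tested. The difference between the lines itself passed for 41 of the common changes (2.43%, beside 0.417% of all kept probe sets), 18 rises and 23 falls. Of the 18 rises, 17 were larger in TIG1A cells. Both lines reached an adjusted p under 0.05 on their own for 150 rises and 184 falls, and both reached an unadjusted p under 0.05 for 678 and 887. Some common calls therefore rest mainly on one line. The dehydrogenase gene DHRS2 rose from a control mean of 3209 to 20390 in TIG1A and 3402 in TIG1B cells on its brighter probe set, and the ETS factor ETV1 fell from 155 to 138 and 4.16. Of the 23 falls, 11 were larger in TIG1A cells. DHRS2 and ETV1 were singled out after their values were seen.
Of 105 named genes, 16 were called under every alternative that tested them, namely RARRES1, RGS2, BPTF, FAM76B, FBXO11, H4C11, HSP90B1, MLF1, NCKAP1, PGK1, RAB2A, SOD2 and TWF1 among the rises and HNRNPL, LATS1 and MED15 among the falls. Each gene was judged on 1 probe set, and other probe sets of several of them were not called, as given above.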

How the data were processed

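RNA of control, TIG1A and TIG1B stable HCT116 cells was measured on 9 HG-U133 Plus 2.0 arrays (Affymetrix), 3 for each group. The authors deposited 1 signal intensity per probe set, on a linear scale, made with GCOS (submitters' processing notes) and scaled to a target of 500, which is the mean of every array once 2% of the values at either end are left out. Detection calls were not among the values used, so an intensity filter took the place of the Present calls of the study's methods. The labels and the methods state 5 nM MFP for 24 h, whereas the series description states 5 micromolar and overnight, and which of them applied was not settled.

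Of 54675 probe sets, 62 array controls were removed. The filter kept 29977, those that were no dimmer than the 50th percentile of the array in 2 or more arrays of any group. Intensities under 1 were set to 1, and log2 values were computed from the deposited values. limma 3.58.1 (R 4.3.3) estimated a mean for each group (6 residual degrees of freedom, median prior 1.84). Contrasts were the mean of both lines minus control and TIG1A minus TIG1B, with Benjamini-Hochberg adjustment over the 29977 and a threshold of 0.05. A common change also had the same sign in each line, and the fold limit was 2. A fold given as "at least" is a lower bound, with every array of the low side that lay below its median set to that median.

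The platform annotation gave 1 symbol for 41091 probe sets (41037 matched the GRCh38.p14 gene table), several for 1801 and none for 11721, and those without a single symbol were not named. Named genes are RARRES1, the 12 rises and 12 falls whose smaller line difference was largest, the 5 largest bounds each way (ranked with a line set to the medians where all of its arrays lay below), up to 8 genes each way with several called probe sets, up to 3 called members per list, and genes that the study describes as shared by the isoforms, where a single symbol was found (GRK5, ZMAT3 and HOXB7). Other names are called members of the 24 lists or the runs described, or are said to have been chosen from their values. The members, lists and rules were chosen with earlier results of these data known. Lists, chromosomes and runs of 25 genes used the brightest probe set of each gene, and promoters came from RefSeq (GRCh38.p14). The fit was tested on simulated data. P-values measure the spread between samples of single clones, and the number of arrays limits their precision. The alternatives were other scalings, filters, tests and sets of arrays.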

Additional observations from a re-analysis of the deposited data

Results flagged for a closer look

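Beside DHRS2 and ETV1, given above, 4 of the genes named by rule differed between TIG1A and TIG1B cells in the test of the difference between the lines, at an adjusted p under 0.05 from limma. FOSL1 fell more in TIG1A cells (-2.30 against -0.77, a log2 difference between the lines of -1.53, standard error 0.19, adjusted p = 0.0291). DUSP5 did so as well (-1.59 against -0.54, difference -1.05, adjusted p = 0.0482). BNIP3, a mitochondrial protein of the BCL2 family, rose more in TIG1A cells (1.84 against 0.58, difference 1.26, adjusted p = 0.0291), as did H2BC5, a histone gene whose probes may also bind other histone transcripts (1.78 against 0.62, difference 1.16, adjusted p = 0.0368). They are part of 41 common probe sets whose lines differed. That count was 54 and 29 without control array 1 and 3, 8 without control array 2, 6, 0 and 13 without TIG1A array 1, 2 and 3, and 6, 0 and 5 without TIG1B array 1, 2 and 3. Groups of 3 arrays are too small for the search for outlying samples.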

How the results depend on the processing

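As deposited, 734 probe sets rose and 953 fell, 444 of them by at least 2-fold in each line, and the lines differed for 41. No called probe set was called in the other direction under any alternative, and no named gene changed direction. Of the scalings, centring on the median of all probe sets, which was chosen after seeing the data, gave 1217 rises, 366 falls and 14 that differed between the lines. Quantile normalisation (902 and 864) and centring on kept probe sets (936 and 672) stayed within 1.5-fold. Adding an offset of 50 gave 1479 falls and 69 that differed. Without the intensity filter, when 54613 probe sets were tested, 46 rose, 32 fell, 73 passed with 2-fold and 0 differed. With the filter at the 75th percentile the numbers were 1536, 1771, 258 and 268. Treating the 6 TIG1 arrays as one group gave 428 rises, 608 falls and 1 that differed. Moderation with a trend and robust prior gave 1615, 1672 and 216. A one-way ANOVA as named in the methods, unadjusted and with a pooled difference of at least 2-fold, gave 596 falls and 23 that differed. After adjustment and without this limit it gave 602 falls and 195 with 2-fold. A t-test of 6 TIG1 against 3 control arrays, unadjusted, gave 693 rises, 668 falls, 974 with 2-fold and 8 that differed. It kept the limit on the pooled difference, whereas the methods compared control with each line separately. After Benjamini-Hochberg adjustment and without the limit the t-test gave 524 rises, 664 falls and 0 that differed. Both adjusted versions and this t-test were chosen after seeing the data. Requiring each line to pass on its own gave 150 rises, 184 falls, 195 with 2-fold and 3 that differed, and an unadjusted p under 0.05 in each line 9 that differed. Without the first arrays of both lines there were 247, 376, 309 and 0. Without any single array the rises ranged from 154 to 1336, the falls from 107 to 1208, those with 2-fold from 176 to 728 and those that differed from 0 to 54. With the replicate number as a block, 270 rose, 292 fell, 271 passed with 2-fold and 0 differed. Deviations of same-numbered TIG1A and TIG1B arrays correlated at 0.192, 0.0494 and 0.0644 for arrays 1, 2 and 3. Array 1 of either line correlated with arrays 2 and 3 of the other at -0.126 to -0.104. TIG1A array 3 with TIG1B array 2, and TIG1A array 2 with TIG1B array 3, gave 0.0895 and 0.0785. Same-numbered TIG1 and control arrays correlated between -0.0369 and 0.00846. The numbers thus paired array 1 of both TIG1 lines, but not arrays 2 and 3 or the control arrays. The source of this pairing was not tested, and the block is given here as a count. The causes of these changes were not tested. Leaving out arrays lowers the number of samples, and the filters change the number of probe sets tested.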
